A study of Homo sapiens with 4 samples.

Results

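The ALDH-positive and the ALDH-negative fraction of SUM159 cells were compared after both had received DOX to switch on the microRNA miR-100. SUM159 is an established human breast cancer line of mesenchymal character, and these cells carried pTRIPZ, a lentiviral vector whose insert is transcribed only in the presence of doxycycline, with miR-100 as the insert. Each gene's log2 level in the ALDH+ DOX array was set against its log2 level in the ALDH- DOX array, so that a positive difference means a higher level in ALDH+ cells. Genes were compared where either of these 2 arrays showed a log2 level of 6 or more, which kept 12228 of the 19775 genes that the annotation ties to a probe set alone. Counted by probe set, the rule kept 30114 of 54675.

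The series held 4 groups of 1 array each, namely ALDH+ DOX, ALDH- DOX, ALDH+ control and ALDH- control, all from the construct-carrying line, sorted by flow cytometry and then kept in suspension. The labels do not settle the treatment. Sample titles and the treatment protocol name doxycycline for 10 h, whereas the sample descriptions name doxorubicin, a different drug, for 13 h. DOX is used here as the labels' short name. With 1 array a side the DOX difference carries no p-value and could not be checked in a replicate. The labels do not say whether the line was a single clone. DOX-treated cells without the construct were not analysed here.

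Aldehyde dehydrogenases oxidise aldehydes, among them retinal to retinoic acid, and a fluorescent assay of this activity is used to enrich breast cancer cells with stem-like properties. A microRNA guides Argonaute proteins to messenger RNAs that pair with its seed, bases 2 to 8 from its 5′ end, and lowers their level or translation. miR-100 belongs to the miR-99/100 family, which is known for acting on the mTOR pathway and on the chromatin remodellers SMARCA5 and SMARCD1. The mature sequences of the family, from RefSeq on GRCh38.p14, are shown because they define which messenger RNAs the construct could reach, with the seed in capitals.
hsa-miR-100-5p: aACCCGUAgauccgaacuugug
hsa-miR-99a-5p: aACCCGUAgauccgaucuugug
hsa-miR-99b-5p: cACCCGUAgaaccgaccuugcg
The seed ACCCGUA is the same in all 3. They lie at chr11:122152275-122152296 on the minus strand, chr21:16539101-16539122 on the plus strand and chr19:51692618-51692639 on the plus strand. The array does not measure mature microRNAs, so induction of miR-100 was not checked. MIR100HG, the host transcript of the cell's own miR-100 gene, was at 12.02 in ALDH+ DOX and 11.92 in ALDH- DOX.

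The ALDH- arrays were close to each other, with a correlation of 0.9964 across all 54675 probe sets, and the ALDH+ arrays less so, at 0.9831. These probe sets include those at background level and the controls. ALDH+ DOX correlated with ALDH- control and ALDH- DOX at 0.9697 and 0.9706, and ALDH+ control with the same arrays at 0.9809 and 0.9805 (probe sets are not independent, and all values share the same normalisation). The 18S ribosomal RNA probe sets of ALDH+ DOX read 10.40 and 10.42, against 11.24 to 12.36 in the other arrays. The 3′ probe set exceeded the 5′ one by 3.11 to 3.87 for ACTB and by 0.33 to 0.98 for GAPDH over the 4 arrays. The part of these differences in the results was not tested, and the control pair, which shares no array with the DOX pair, is given beside the main results.

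By a difference of 2-fold or more (1 on the log2 scale), 1396 genes were higher in ALDH+ DOX than in ALDH- DOX, 11.4% of the 12228 measured, and 650 were lower, 5.32%. At 4-fold the counts were 242 and 107, and at 8-fold 35 and 30. The higher side made up 68.2% of all calls. This share depends on the scaling between arrays, because the median gene differed by 0.08, and with each array centred on its own median the calls were 1133 higher and 842 lower (57.4% higher). With cyclic loess they were 1305 and 682 (65.7%). In 349 of the higher genes the ALDH- level, and in 95 of the lower genes the ALDH+ level, lay under 6, where signal cannot be told from background and the size of the difference is uncertain. Several probe sets reached the level for 914 of the called genes, and in 751 of these every one differed in the same direction.

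The same comparison without DOX called fewer genes, 734 higher (6.09% of 12052 measured) and 530 lower (4.4%). Of the 1276 higher genes that were also measured in the control pair, 574 were 2-fold higher there too and 1231 lay above 0. Of the 633 lower genes, 263 were 2-fold lower in the control pair and 574 lay below 0. An error for the ALDH difference came from an additive model over the 4 arrays (limma, terms for ALDH fraction and for DOX), in which each treatment repeats the other. It tests the mean difference over DOX and control, not the DOX pair alone, and counts any departure between the pairs as error. At a Benjamini-Hochberg adjusted p of 0.05, 1672 of 12365 genes were higher in ALDH+ cells (13.5%) and 1184 lower (9.58%). These included 1113 of the 1396 genes called higher in the DOX pair and 512 of the 650 called lower. The DOX difference is itself part of the mean tested, so this overlap is in part built in and is no independent check. In what follows, rose and fell are used of genes that passed this model, and a value after ± is its standard error. Counts called in gene lists are to be read beside the 11.4% higher and 5.32% lower of all genes measured in the DOX pair.

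**Figure D1:**
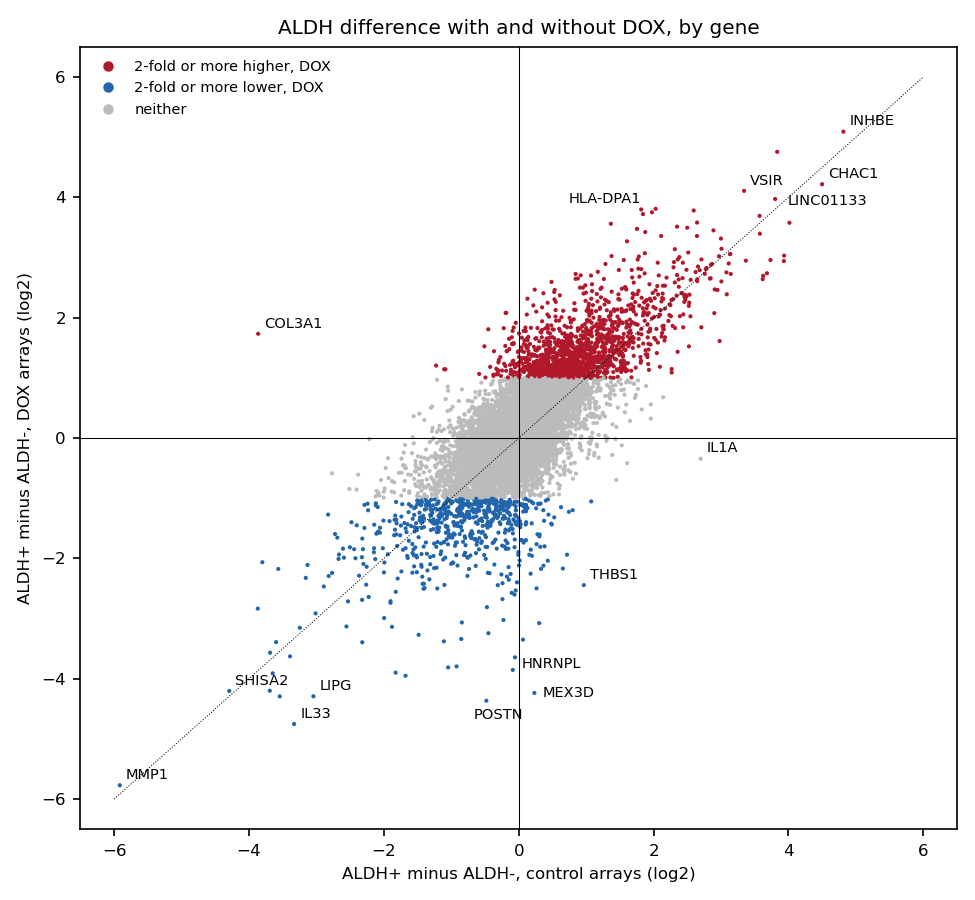
ALDH+ minus ALDH- difference of each gene in the DOX arrays (vertical, log2) against the same difference in the control arrays (horizontal, log2), 1 point a gene and 1 array a group, with equality as a dotted line. INHBE and MMP1 sit at opposite ends near the dotted line, whereas COL3A1, MEX3D, HNRNPL, POSTN and IL1A lie far from it.

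The sort could be checked only in part. ALDH1A1, the enzyme most often linked to the activity that the assay reads, was at 10.66 in ALDH+ DOX and 10.86 in ALDH- DOX, a difference of -0.20. In the control arrays it was at 11.77 and 10.72, higher by 1.05 in ALDH+ cells, and it did not pass the additive model (0.42 ± 0.26, adjusted p = 0.258). ALDH1A3, a retinal-oxidising relative, was at 6.64 and 7.79 with DOX, lower by 1.15 on the log2 scale in ALDH+ cells, and higher by 0.63 without DOX. Neither of these was higher in the ALDH+ DOX array, and the fractions are named here as the labels name them. Of the line's own markers, the mesenchymal filament gene VIM was at 13.79 and 13.66 and the surface glycoprotein gene CD44 at 12.49 and 12.82.

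Over the 14 measured members of the ALDH family, 3 were 2-fold higher and 2 lower, with a median of 0.01 (0.07 in the control pair) that turned to -0.10 when arrays were centred. As the mean of all probe sets of a gene, which takes in those under the level, ALDH3B1 differed by 1.26 and ALDH1A3 by -0.72. ALDH3B1, which oxidises lipid-derived aldehydes, was at 10.60 and 8.40 and rose by 1.91 ± 0.26 (adjusted p = 0.000345). ALDH6A1, a mitochondrial enzyme of valine breakdown, was at 11.60 and 9.52 and rose by 2.0 ± 0.21 (adjusted p = 5.27e-05). ALDH3A2, the fatty aldehyde dehydrogenase, was at 11.09 and 12.12 and fell by 0.80 on the log2 scale (SE 0.17, adjusted p = 0.00495). The mean of its probe sets differed by -0.82. ALDH7A1 was higher by 1.11 (0.89 without shared probe sets, meaning those designed to match more than a single transcript) and ALDH8A1 by 0.95, and neither passed. The other 8, ALDH1A1 among them, lay between -0.30 and 0.20.
Among 12 measured genes of retinoid handling, 2 were higher and 1 lower, with a median of -0.03, and -0.51 in the control pair. PLAAT4, a retinoid-inducible phospholipase, was at 8.61 and 6.09 and rose by 2.44 ± 0.28 (adjusted p = 9.48e-05). DHRS3, which turns retinal back into retinol, was at 10.17 and 8.95 and rose. DHRS9 and RDH10, which oxidise retinol towards retinal, were lower by 1.74 and 0.98 on the log2 scale and fell.

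INHBE led the genes that were higher in ALDH+ DOX. It encodes an activin subunit that is induced by ATF4, and it was at 10.37 in ALDH+ DOX and 5.28 in ALDH- DOX, a difference of 5.09, or 34.1-fold. In the control pair it differed by 4.82, and it rose by 4.95 ± 0.28 (adjusted p = 1.35e-06). CHAC1, a glutathione-degrading enzyme of the same stress programme, was at 9.66 and 5.44, a difference of 4.22, and at 4.50 in the control pair. Both are near background in ALDH- DOX, and with levels under 6 set to 6 the differences were 4.37 and 3.66.
VSIR, which encodes an immune checkpoint protein, was at 10.42 and 6.31, higher by 4.11. RASSF4, a Ras association domain gene, was at 10.06 and 6.28, higher by 3.78. ELMOD1 was at 9.97 and 6.28, higher by 3.69. All 3 reached the level in both arrays, though in ALDH- DOX only just. The means of the probe sets of RASSF4 and ELMOD1 differed by less, 1.16 and 2.24. MYOZ2, a sarcomere gene, was at 10.49 and 5.73, but its probe sets at the level are all of the shared kind.
The other genes among the 15 highest were LINC01133 (3.97), HLA-DPA1 (3.81), the B-cell transcriptional coactivator POU2AF1 (3.75), the lysosomal membrane protein LAMP3 (3.72), KLHDC7B (3.58), ECM2 (3.58), the Wnt inhibitor APCDD1 (3.56), NATD1 (3.51) and SAG (3.50). ALDH- DOX lay under 6 for each of these. With such levels set to 6, HLA-DPA1, POU2AF1 and KLHDC7B differed by 1.93, 1.83 and 1.78. The mean of the probe sets was 2.37 for LINC01133, 1.44 for ECM2, 1.93 for APCDD1 and 1.87 for NATD1. All 15 rose, which is in part built in, since the DOX difference that picked them is part of the mean tested. The control pair, which shares no array with the DOX pair, differed in the same direction, by 1.37 (APCDD1) to 4.82 (INHBE).

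MMP1, the interstitial collagenase, had the lowest value. It was at 4.43 in ALDH+ DOX and 10.20 in ALDH- DOX, lower by 5.77 on the log2 scale and by 5.92 in the control pair, and it fell (-5.84 ± 0.28, adjusted p = 4.05e-07). With levels under 6 set to 6 its difference was -4.20. IL33, an alarmin cytokine, was at 4.96 and 9.71, a difference of -4.75.
IGF2BP3, an oncofetal RNA-binding protein, was at 7.14 and 11.44, a difference of -4.29, above the level in both arrays but from shared probe sets alone, and -2.71 as the mean of all its probe sets. TFPI2, an inhibitor of serine proteases, was at 8.80 and 12.75 (-3.95), and AQP9, a water and glycerol channel, at 6.08 and 9.99 (-3.91). These 3 fell, and differed by -3.54, -1.68 and -3.65 in the control pair. The endothelial lipase LIPG (-4.29), SHISA2 (-4.20), the nicotinic receptor subunit CHRNA9 (-4.20) and the heat shock protein HSPA6 (-3.90) were at 8.24 to 8.99 in ALDH- DOX and under 6 in ALDH+ DOX, and fell. With levels under 6 set to 6, LIPG and CHRNA9 differed by -2.24 and -2.52.
The other 6 of the 15 lowest were POSTN, MEX3D, HNRNPL, HMOX1, SLC35D1 and ATP6V0D2. Their control pair differed by -1.05 to 0.23, against -4.37 to -3.65 with DOX, and they are taken up with the genes whose 2 differences depart. For the 15 lowest too, passing the additive model is in part built in by the way they were picked.

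The integrated stress response gave the largest number of higher genes among the pathway lists. It is the programme in which phosphorylation of eIF2α raises ATF4, which then activates amino acid synthesis, tRNA charging and stress effectors. Of 28 measured members, 16 were 2-fold higher and 1 lower, with a median difference of 1.48 beside 0.08 for all genes, and 21 rose and 0 fell. The control pair gave a median of 1.62, with 18 higher, 16 of them the same genes. PCK2, the mitochondrial PEP carboxykinase, was at 12.50 and 9.68 and rose by 2.81 ± 0.19 (adjusted p = 4.35e-06). CBS, which makes cystathionine from homocysteine, was at 11.08 and 8.37 and rose by 2.53 ± 0.25 (adjusted p = 3.53e-05). The member that was lower, JDP2, is an AP-1 family repressor at 8.17 and 9.22, and the mean of its probe sets gave 0.39.
Genes downstream in the same pathway followed in part. Of 17 cytosolic aminoacyl-tRNA synthetases, 4 were higher and 0 lower, the median was 0.42, and 9 rose and 1 fell. AARS1 was at 12.66 in ALDH+ DOX and 1.66 higher there than in ALDH- DOX. As pairs of levels, SARS1 was at 12.71 and 11.23, CARS1 at 12.25 and 10.78 and GARS1 at 13.25 and 12.20 (1.05, or 0.94 with arrays centred). Each charges the tRNA of its amino acid, and all 4 rose, with differences of 0.90 to 1.70 in the control pair. Among 17 amino acid transporters 4 were higher and 0 lower, and their median of -0.04 turned to 0.02 with cyclic loess. SLC1A4 (2.53), SLC43A1 (1.64) and SLC1A5 (1.32), carriers of neutral amino acids, rose. Chaperones of the endoplasmic reticulum and genes of its unfolded protein response had 1 of 20 higher and 1 lower. Their median of 0.08 turned to -0.03 on centring. HERPUD1, of the degradation complex in that membrane, was at 12.63 and 11.97 and rose by 0.83 ± 0.13 (adjusted p = 0.000701), and ATF6, a sensor there, was higher by 1.13 (0.89 as the mean of its probe sets) and rose. The cochaperone CRELD2 was lower by 0.97 on the log2 scale and fell.

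ATF4 binds composite sites with C/EBP proteins, for which the letters TGATGNAA were searched on both strands of RefSeq promoters of 300 bases (250 before to 50 after the start of transcription, GRCh38.p14). They were found in 5 of the 23 measured stress response genes with a promoter listed (21.7%), in 2.84% of 9983 measured genes and in 4.46% of all 27305 genes listed. The 5 include JDP2, the member that was lower. Of the 15 members called either way that had a promoter listed, 4 held these letters. The promoters of CHAC1 and ASNS are shown because these genes were higher by 4.22 and 1.60 (ASNS, asparagine synthetase, was at 12.95 and 11.35), with the match in capitals.
CHAC1, chr15:40953221-40953520, plus strand: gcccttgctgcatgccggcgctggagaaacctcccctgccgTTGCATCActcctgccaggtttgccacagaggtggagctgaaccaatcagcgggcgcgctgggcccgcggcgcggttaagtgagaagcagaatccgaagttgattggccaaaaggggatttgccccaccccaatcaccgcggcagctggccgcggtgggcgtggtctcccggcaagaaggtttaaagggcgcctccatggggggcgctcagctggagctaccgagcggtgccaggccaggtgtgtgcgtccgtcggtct
ASNS, chr7:97872359-97872658, minus strand: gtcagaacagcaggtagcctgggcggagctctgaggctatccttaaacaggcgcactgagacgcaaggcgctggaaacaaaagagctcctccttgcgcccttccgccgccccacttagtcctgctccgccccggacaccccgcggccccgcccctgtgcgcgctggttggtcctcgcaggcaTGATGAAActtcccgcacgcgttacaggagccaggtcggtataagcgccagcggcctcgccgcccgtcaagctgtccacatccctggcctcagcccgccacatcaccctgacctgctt
The match starts at position -209 from the start of transcription in CHAC1, on the opposite strand, and at -68 in ASNS. A match of letters is no measure of binding.

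MHC class II genes could be read mostly through the ALDH+ array alone. They encode the α and β chains and the loading machinery with which cells present extracellular peptides to CD4+ T cells, and outside immune cells they depend on the coactivator CIITA. The 8 measured members were 2-fold higher in ALDH+ DOX and 7 rose, but for 7 of them ALDH- DOX lay under 6, so that the filter fixed the direction. The median was 1.94, or 1.03 with levels under 6 set to 6. In the control pair it was 1.02, and 4 of 6 measured members were 2-fold higher. HLA-DPA1 was at 7.93 and 4.12 (2.92 ± 0.38, adjusted p = 0.000218), HLA-DQA1 at 7.19 and 4.22, and HLA-DMA, a loading factor, at 7.97 and 5.80. CD74, the invariant chain, reached the level in both arrays, at 9.28 and 6.72, and rose by 1.82 ± 0.34 (adjusted p = 0.00276). Its difference was 2.56, and 1.18 as the mean of its probe sets. For HLA-DQA1 the difference was 1.19 with levels under 6 set to 6. HLA-DOA and HLA-DOB, class II genes that the list did not hold, were at 6.69 and 7.03 (-0.34) and at 9.77 and 8.52 (1.25, or -0.06 without shared probe sets), and neither passed. CIITA lay under 6 in all 4 arrays, at 4.43 in ALDH+ DOX and 4.54 in ALDH- DOX.
Most markers of leukocytes lay under 6 in all 4 arrays. Of 14 immune markers on the array, 2 reached the level in ALDH+ DOX and 1 in each of the other arrays. Their summed linear level, on the log2 scale, was 11.57 in ALDH+ DOX, 11.36 in ALDH+ control, 10.05 in ALDH- DOX and 9.95 in ALDH- control. LAPTM5, a lysosomal protein of blood cells, made up most of it, at 11.36 and 9.47 with DOX, and rose by 1.82 ± 0.22 (adjusted p = 0.000128). The B-cell marker MS4A1 was at 6.21 and 3.74 (0.21 with levels under 6 set to 6). The defining markers PTPRC (5.18 and 4.22) and CD3D (4.92 and 5.41) lay under 6 in all 4 arrays.
MHC class I presentation, which is active in most nucleated cells, differed less. Of 14 members 1 was higher and 0 lower, the median was 0.64 (0.36 in the control pair), and 6 rose. TAPBP, which bridges the peptide transporter to class I chains, was at 12.21 and 11.18 (1.03, or 0.91 with arrays centred), and HLA-F, HLA-G and HLA-E lay between 0.84 and 0.93 and rose. HLA probe sets can hybridise to related HLA genes, so that the split between members is uncertain.

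Some interferon-stimulated genes were higher. Interferons act through a shared promoter element to raise antiviral effectors. Of 29 measured members 10 were higher and 2 lower, with a median of 0.58 and 0.42 in the control pair, and 8 rose and 3 fell. In 5 of the 10 higher genes ALDH- DOX lay under 6. The median was 0.37 with levels under 6 set to 6, and also with the mean of each gene's probe sets. IFIT2, which blocks translation of viral RNA, was at 8.87 and 5.81 and rose by 3.09 ± 0.28 (adjusted p = 1.81e-05), with a difference of 1.75 as the mean of its probe sets. RSAD2, which makes an antiviral nucleotide, was at 7.11 and 4.41 and rose by 3.16 ± 0.31 (adjusted p = 3.22e-05), and its difference was 1.11 with levels under 6 set to 6. OASL, of the oligoadenylate synthetase family, was at 9.37 and 7.02, and the exonuclease gene ISG20 at 8.23 and 6.21. Both rose, by 2.40 ± 0.27 and 1.74 ± 0.29.
The interferon response element, searched as TTTC, any 2 bases and TTTC on both strands, was found in 18 of 25 promoters of measured interferon genes (72.0%), in 4.14% of measured genes and in 4.38% of all genes listed. RSAD2 is shown as the member of this list with the largest difference that holds a match, in capitals, starting at position -145 from the start of transcription.
RSAD2, chr2:6877527-6877826, plus strand: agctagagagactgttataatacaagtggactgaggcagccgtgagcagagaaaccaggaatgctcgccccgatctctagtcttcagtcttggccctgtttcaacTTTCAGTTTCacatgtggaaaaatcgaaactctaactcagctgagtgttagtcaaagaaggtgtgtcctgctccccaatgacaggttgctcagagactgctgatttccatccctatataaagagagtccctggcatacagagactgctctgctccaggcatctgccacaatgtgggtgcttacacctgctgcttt
Of the 9 interferon genes called either way that had a promoter listed, 7 held the element.

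**Figure D2:**
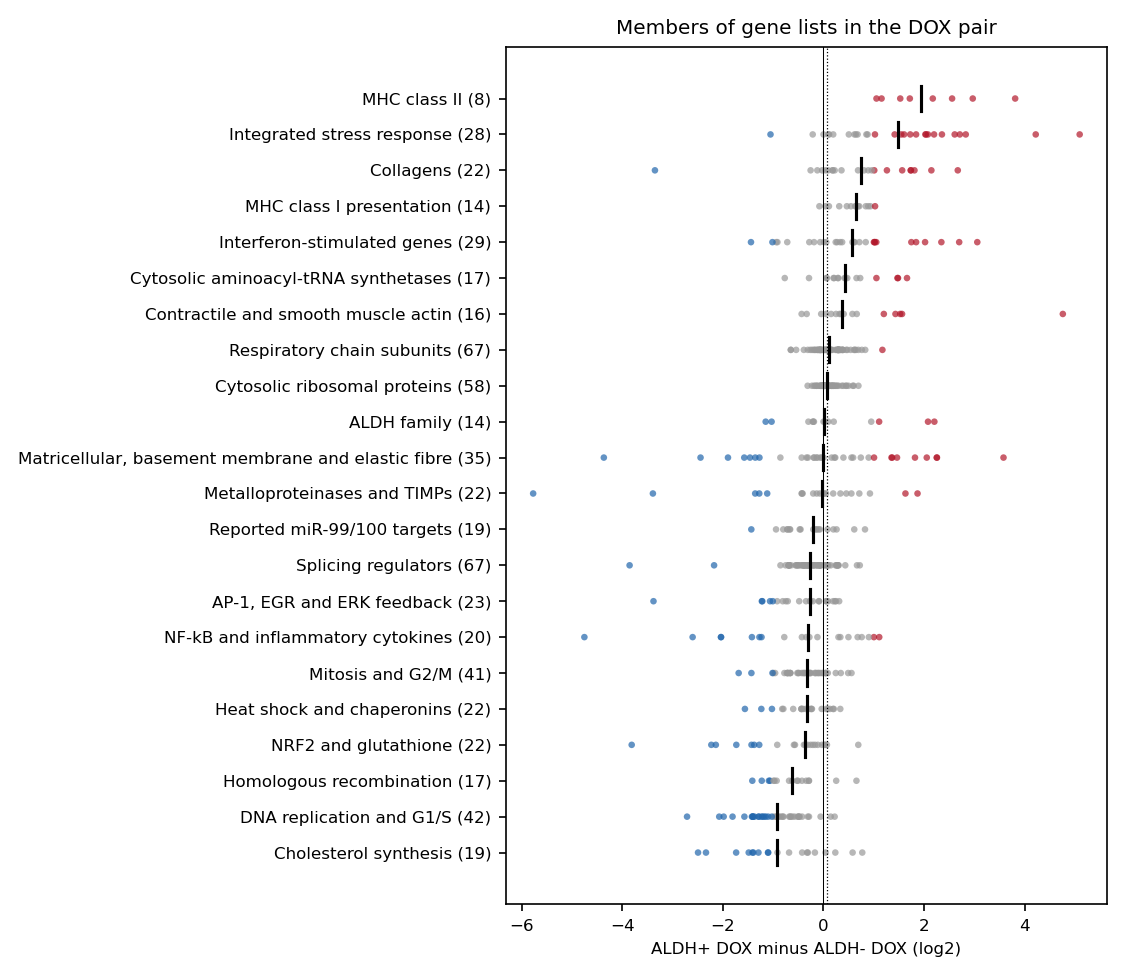
ALDH+ DOX minus ALDH- DOX (log2) for every measured member of 22 gene lists, 1 point a gene, with the number of members in brackets, the list's median as a black bar, 2-fold calls in red (higher) and blue (lower) and the median of all genes as a dotted line. The integrated stress response has a median of 1.48 and MHC class II 1.94, or 1.03 with levels under 6 set to 6, and DNA replication and cholesterol synthesis (both -0.92) lie lowest.

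DNA replication and G1/S genes were lower in ALDH+ DOX. They load and fire replication origins, make nucleotides and copy DNA, and most are activated by E2F factors as cells enter S phase. Of 42 measured members 18 were lower and 0 higher, with a median of -0.92, and 33 fell and 0 rose. In the control pair the median was -1.03 and 23 were lower, 13 of them shared with the DOX pair. CCNE2, a cyclin that drives entry into S phase, was at 8.36 and 11.07 and fell by 2.31 on the log2 scale (SE 0.26, adjusted p = 9.28e-05). The helicase subunit MCM4 was at 10.47 and 12.55, MCM10, which activates the helicase, at 8.96 and 10.95, and CDC6, which loads the helicase, at 9.26 and 11.07. These 3 fell, by 1.52, 1.75 and 1.52 on the log2 scale.
E2F sites, searched as TTTCCCGC, TTTGGCGC or TTTCGCGC on both strands, were found in 20 of 37 promoters of these genes (54.1%), in 5.65% of measured genes and in 3.30% of all genes listed. CDC6 is shown as a helicase loader with a match (capitals), which starts at position 7 after the start of transcription.
CDC6, chr17:40287629-40287928, plus strand: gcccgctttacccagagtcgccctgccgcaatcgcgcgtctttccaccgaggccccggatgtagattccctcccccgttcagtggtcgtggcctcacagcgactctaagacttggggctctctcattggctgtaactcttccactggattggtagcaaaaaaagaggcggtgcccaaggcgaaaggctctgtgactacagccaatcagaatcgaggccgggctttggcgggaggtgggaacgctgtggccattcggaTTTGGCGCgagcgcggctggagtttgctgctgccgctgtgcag
Of the 15 lower members with a promoter listed, 10 held such a site.

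Mitotic genes differed less than replication genes. Of 41 measured members of mitosis and G2/M, 3 were lower and 0 higher, the median was -0.33 (-0.23 in the control pair), and 9 fell and 0 rose. ANLN, a scaffold of the cleavage furrow, was at 10.35 and 11.78, the spindle protein DLGAP5 at 9.83 and 10.85, and the checkpoint kinase BUB1B at 10.52 and 11.52, and these 3 fell. Without shared probe sets ANLN differed by -2.98. KIF23, a midzone kinesin, was at 8.70 and 10.38 (-0.55 without shared probe sets) but at 10.40 and 10.46 in the control pair, and did not pass. The letters TTTGAA of the cell cycle homology region were found in 24 of 34 promoters of the list (70.6%), in 14.1% of measured genes and in 18.2% of all genes listed.
Homologous recombination, which repairs breaks in S and G2 phase, had 4 of 17 members lower and 0 higher, a median of -0.62 (-0.73 in the control pair) and 7 that fell. FANCI (10.28 and 11.50), FANCB (6.26 and 7.67) and the exonuclease gene EXO1 (9.78 and 10.86) fell, as did NBN of the break-sensing complex (11.02 and 12.08), whose probe sets averaged -0.61.
None of 9 measured D cyclins and CDK inhibitors was called, and 0 passed the additive model, with a median of 0.09 that turned to -0.03 on centring, and -0.42 in the control pair. CDKN1A, the p53-induced inhibitor, was at 11.03 and 11.51, and CDKN1B was at 10.55 in ALDH- DOX, with a difference of 0.45. Replication-dependent histones had 1 of 19 higher and 3 lower (median -0.45, and -0.06 in the control pair). H2AC25 was at 10.07 and 8.24 and rose. The linker histones H1-3 (10.31 and 12.11) and H1-4 (6.25 and 7.89) were lower by 1.81 and 1.63 on the log2 scale with DOX but at 0.32 and 0.31 without it, and did not pass. These transcripts mostly lack poly(A) tails, and many histone genes are near-identical copies, so that the split between them is uncertain.

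**Figure D3:**
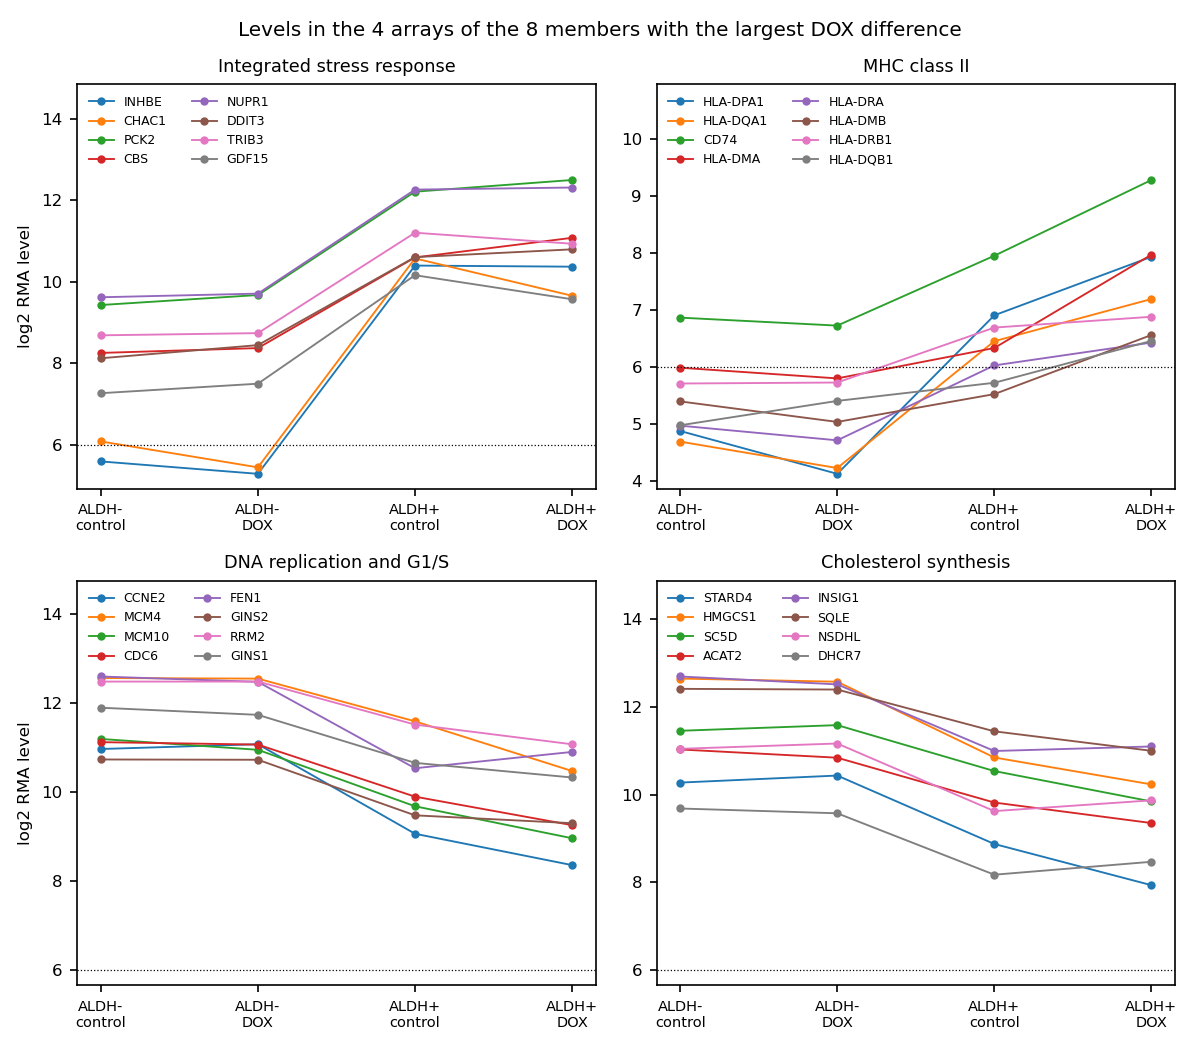
Log2 level in each of the 4 arrays for the 8 members of 4 lists with the largest DOX difference, 1 array a group, lines joining the same gene across arrays and the level of 6 dotted. In the stress response, replication and cholesterol panels both ALDH+ arrays lie apart from both ALDH- arrays, and most MHC class II genes are higher in ALDH+ DOX than in ALDH+ control.

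Cholesterol synthesis was as low as replication. The transcription factor SREBF2 activates these enzymes when membrane sterol falls. Of 19 measured genes 9 were lower and 0 higher, with a median of -0.92 in both pairs, and 13 fell and 0 rose. The 7 genes lower in the control pair were all lower with DOX too. HMGCS1, which makes HMG-CoA, was at 10.23 and 12.57 and fell by 2.07 on the log2 scale (SE 0.17, adjusted p = 1.23e-05). The sterol carrier STARD4 was at 7.94 and 10.43 and fell by 1.95 (log2), SC5D, a sterol desaturase, was at 9.84 and 11.58, and ACAT2 at 9.35 and 10.84.
In the fatty acid branch 1 of 14 genes was higher and 1 lower, with a median of -0.02. ACLY, which makes cytosolic acetyl-CoA, was at 11.48 and 12.69 and fell, as did ACSL4 (-0.89). MID1IP1, which promotes assembly of acetyl-CoA carboxylase, was at 7.22 and 4.72 and rose, with a difference of 1.22 when levels under 6 were set to 6. FADS3 was higher by 0.65 and rose.

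Heat shock proteins and chaperonins were lower by small amounts, with 3 of 22 members lower, 0 higher, a median of -0.33 and 10 that fell. HSPH1, an exchange factor for HSP70, was at 10.88 and 12.44 and fell by 1.38 on the log2 scale (SE 0.15, adjusted p = 7.56e-05). HSP90AA1, the inducible HSP90, was at 13.00 and 13.82 and fell. STIP1, which hands clients to HSP90, was at 10.57 and 11.81 (-0.96 as the mean of its probe sets), and CHORDC1 at 10.93 and 11.95 (-0.26 without shared probe sets).
Genes of NRF2, the factor that answers oxidants and electrophiles, and of glutathione had 7 of 22 lower and 0 higher, a median of -0.38, and 10 that fell against 1 that rose. In the control pair 7 were lower as well, 6 of them the same. GCLM, a subunit of the enzyme that starts glutathione synthesis, was at 9.13 and 11.36 and fell by 1.87 on the log2 scale (SE 0.23, adjusted p = 0.000187). The aldo-keto reductases AKR1C1 (11.78 and 13.92) and AKR1C2 (12.10 and 13.83) fell, though their sequences are close enough for shared signal (AKR1C1 differed by -4.27 without shared probe sets). HMOX1, which breaks down haem, was at 9.30 and 13.11, a difference of -3.81 with DOX and -1.05 without, and fell by 2.43 on the log2 scale (SE 0.41, adjusted p = 0.00144).

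Inflammatory genes were split between the pairs. Of 20 measured genes of NF-kB and inflammatory cytokines 7 were lower and 2 higher with DOX (median -0.31), and 2 were lower and 4 higher in the control pair (median 0.37). In the additive model 6 fell and 3 rose. CCL20, a chemokine for lymphocytes and dendritic cells, was at 7.18 and 9.78 with DOX but at 9.72 and 9.79 without. CXCL8, a chemokine for neutrophils, was at 9.85 and 11.89 with DOX and at 11.94 and 11.93 without. Both fell by the mean over pairs, with adjusted p of 0.0451 and 0.0443. IL1B was at 7.35 and 9.38 with DOX, at 8.89 and 8.46 without, and did not pass (adjusted p = 0.209). For these 3 genes the ALDH+ DOX array was the low one of the 4.
Early response genes had 5 of 23 lower and 0 higher (median -0.27, and 0.08 in the control pair), and 5 fell. EGR3, a zinc finger factor induced by growth signals, was at 5.17 and 8.55 and fell by 2.25 on the log2 scale (SE 0.42, adjusted p = 0.00275). The ERK phosphatase gene DUSP6 was at 10.48 and 11.71 (-0.80 without shared probe sets) and DUSP1 at 11.69 and 12.75 (-0.67 as the mean of its probe sets), and both fell. FOS was lower by 1.22 on the log2 scale and did not pass.
Prostaglandin genes had 3 of 17 higher and 4 lower (median -0.14). SLCO2A1, which carries prostaglandins into cells, was at 9.54 and 6.84 and rose by 1.89 ± 0.36 (adjusted p = 0.00279). HPGD, which inactivates them, was at 7.98 and 10.16 and fell, as did PLA2G4A, which frees arachidonic acid (5.83 and 7.82). PTGIS was at 4.08 and 6.62 with DOX (-0.62 with levels under 6 set to 6) and under 6 in both control arrays. Among 16 lysophospholipid genes 1 was higher and 4 were lower (median -0.20). S1PR3, a receptor for sphingosine 1-phosphate, was at 4.52 and 8.09 and fell by 3.63 on the log2 scale (SE 0.28, adjusted p = 7.52e-06). Its difference was -2.09 with levels under 6 set to 6. S1PR1 (6.05 and 7.37) and LPAR3 (5.76 and 7.54, or -0.98 as the mean of its probe sets) fell too. S1PR2 was at 9.33 and 8.19 and rose, with a probe set mean of 0.49.

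Matrix genes went both ways. Of 22 metalloproteinases and TIMPs 2 were higher and 5 lower (median -0.03), and 3 rose and 6 fell. All 5 lower genes were lower in the control pair too. MMP3, stromelysin 1, was at 4.58 and 7.98 and fell by 3.49 on the log2 scale (SE 0.28, adjusted p = 1.03e-05), or -1.98 in the DOX pair with levels under 6 set to 6. TIMP3, a matrix-bound inhibitor, was at 9.78 and 7.91 and MMP19 at 10.79 and 9.16, and both rose. In the urokinase and serpin list 2 of 11 were higher and 2 lower (median -0.20). SERPINA3 was at 8.45 and 6.14 and rose by 2.30 ± 0.28 (adjusted p = 0.000133), SERPINB5, maspin, was at 10.51 and 12.03 and fell, and SERPINB8 was at 7.22 and 8.51 (-0.57 as the mean of its probe sets) and fell. SERPINF1 was at 6.47 and 4.07 and rose, with a difference of 0.47 when levels under 6 were set to 6.
Collagens had 8 of 22 higher and 1 lower with DOX (median 0.75), and 2 higher and 1 lower without (median -0.03). The DOX median was 0.40 with the mean of each gene's probe sets. In the additive model 4 rose and 1 fell. COL28A1 was at 10.96 and 8.29 and COL12A1, a fibril-associated collagen, at 11.05 and 8.90, and they rose by 2.18 ± 0.28 and 1.90 ± 0.24. COL6A1 was at 10.80 and 8.99 with DOX (0.53 as the mean of its probe sets) and at 8.30 and 8.76 without. COL1A2, a chain of the main fibrillar collagen, was at 4.56 and 7.91 with DOX and at 4.54 and 4.48 without, so that ALDH- DOX was the high array (-1.91 with levels under 6 set to 6).
Among 35 matricellular, basement membrane and elastic fibre genes 9 were higher and 7 lower (median -0.00), and 11 rose and 6 fell. THBS3 was at 8.88 and 6.62 and ECM2 at 8.88 and 5.30, and both rose. THBS1, thrombospondin 1, was at 8.02 and 10.46 with DOX and at 11.56 and 10.59 without, and its 5 probe sets at the level disagreed (-0.68 without shared probe sets).

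Of 15 integrins 3 were higher and 1 lower, with a median of 0.28 that turned to -0.02 with the mean of each gene's probe sets, and -0.10 in the control pair. ITGB4, the laminin-binding subunit of hemidesmosomes, was at 10.74 and 8.44 and rose by 2.28 ± 0.24 (adjusted p = 6.15e-05), with a difference of 1.22 as the mean of its probe sets. ITGA3 (1.18), ITGA10 (1.05, or 0.94 with arrays centred) and ITGB3 (-1.51, or -0.23 as the mean of its probe sets) did not pass. Among 15 cadherins and protocadherins 0 were higher and 1 was lower (median 0.14). That gene, PCDH7, was at 8.02 and 9.08 and fell, but differed by 0.39 without shared probe sets. CDH8 was higher by 0.70 and rose, and FAT1 was lower by 0.62 on the log2 scale and fell.
Of 7 measured genes of tight junctions and epithelial splicing, 3 were higher in both pairs and rose, with a median of 0.05 that turned to -0.07 on centring. CLDN1, a strand-forming claudin, was at 9.91 and 6.97 and rose by 3.44 ± 0.30 (adjusted p = 1.52e-05). OCLN, occludin, was at 9.39 and 7.25 (1.12 as the mean of its probe sets). ESRP1, an epithelial splicing factor, was at 6.87 and 4.48, or 0.87 apart with levels under 6 set to 6.
Contractile genes had 5 of 16 higher and 0 lower (median 0.37), and 9 rose and 0 fell. MYLK, the myosin light chain kinase, was at 9.68 and 8.24 and MYH11, smooth muscle myosin, at 8.84 and 7.31. The means of their probe sets were 0.56 and 0.48, and MYL9 (7.93 and 6.37) gave 0.29 without shared probe sets.
Among 16 genes of EMT and mesenchyme 3 were higher and 2 lower (median -0.01). AXL, a receptor kinase of mesenchymal tumour cells, was at 12.75 and 11.35 and rose by 1.23 ± 0.15 (adjusted p = 0.000116). PRRX1, a mesenchymal transcription factor, was at 5.98 and 7.43 and fell. ACTA2 was at 10.41 and 9.21 and rose, with a probe set mean of 0.16, and PDGFRB (1.10, or 0.98 on centring) did not pass.

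The breast lineage lists held few measured genes. Over all measured genes, 11.4% were 2-fold higher and 5.32% lower. Of 7 measured luminal genes 2 were higher and 0 lower (median 0.40), and 3 rose. GATA3, the luminal transcription factor, was at 9.04 and 7.21 and rose by 2.07 ± 0.28 (adjusted p = 0.000287). KRT7 was at 12.43 and 10.83 and rose by 1.48 ± 0.16, and XBP1 (10.97 and 10.44) rose by 0.67 ± 0.20. KRT19 was lower by 0.79 on the log2 scale and did not pass. Of 9 basal genes 3 were higher and 1 lower, with a median of 0.74, which was 0.18 without shared probe sets and 0.03 with the mean of each gene's probe sets. KRT5, a keratin of the basal layer, was at 7.51 and 5.96 and rose by 1.28 ± 0.29 (adjusted p = 0.00763), and SFN was at 10.64 and 12.17 and fell by 1.52 on the log2 scale (SE 0.17, adjusted p = 6.59e-05).
Among 15 genes used as markers of stem-like breast cells 3 were higher and 3 lower (median 0.14), and 4 rose and 4 fell. PROM1, which encodes CD133, was at 6.25 and 3.77 and NANOG at 7.12 and 5.10. Both rose from levels under 6 in ALDH- DOX, and with those set to 6 the differences were 0.25 and 1.12. SOX9, a progenitor transcription factor, was at 6.94 and 8.70, and the Notch ligand DNER at 10.99 and 12.68, and both fell.
Of 4 measured genes of the IGF2BP, LIN28 and HMGA list, IGF2BP3 and HMGA2 were lower and fell, and 0 were 2-fold higher (median -0.57). HMGA2, a chromatin architecture protein, was at 7.80 and 8.98 (-2.01 without shared probe sets). IGF2BP2 was at 12.08 and 11.12 and rose by 1.04 ± 0.15 (adjusted p = 0.000583). HOX genes had 4 of 13 higher and 0 lower (median 0.50, and -0.02 in the control pair), and 2 rose. HOXD8 was at 8.59 and 7.40 and rose by 1.36 ± 0.28 (adjusted p = 0.00418), and HOXB9 (6.98 and 5.98) rose with a difference of 1.01, or 0.89 on centring. HOXA2 and HOXC9 were higher by 1.13 and 1.03 (0.92 for HOXC9 on centring) and did not pass.

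Reported targets of the miR-99/100 family are described because miR-100 is the insert of the construct that both fractions carried. Of 19 measured members 1 was lower and 0 higher, the median was -0.20 with DOX and -0.29 without, and 2 fell and 0 rose. TRIB2, a pseudokinase, was at 9.17 and 10.60 and fell by 1.54 on the log2 scale (SE 0.23, adjusted p = 0.000656), and RPTOR, the scaffold of mTORC1, was at 7.57 and 8.29 and fell by 1.10 on the log2 scale (SE 0.29, adjusted p = 0.0179). MTOR itself was at 8.04 and 8.14. SMARCD1 was at 8.61 and 9.32 (-0.36 as the mean of its probe sets), SMARCA5 at 11.41 and 11.89 and the BMP receptor BMPR2 at 10.10 and 10.30, and none of these passed.
FGFR3 (-0.94, or -0.31 as the mean of its probe sets), KBTBD8 (-0.80), AGO2 (-0.67), PLK1 (-0.66) and PPP3CA (-0.46) lay below 0. THAP2 (0.61) and RAVER2 (0.26) lay above it. BAZ2A was at 0.83, but only 1 of its 4 probe sets at the level was higher and the mean of its probe sets was -0.18. ZZEF1, CTDSPL, FKBP5, MBNL1 and IGF1R lay between -0.15 and 0.20. The means of the probe sets of MBNL1 (-0.69), ZZEF1 (-0.09) and CTDSPL (0.07) had the opposite sign. Both arrays carry DOX, so that the comparison does not measure induction, and whether miR-100 was induced equally in both fractions was not tested.
In the wider mTOR axis 4 of 28 genes were higher and 0 lower (median 0.14, and -0.06 in the control pair), and 4 rose and 1 fell. All measured genes had 11.4% higher and 5.32% lower. ULK1, the kinase that starts autophagy, was at 9.63 and 7.36 and rose by 1.72 ± 0.31 (adjusted p = 0.00213). IRS1, the insulin receptor substrate, was at 9.72 and 8.20 and rose, as did RRAGD, a Rag GTPase that recruits mTORC1 to lysosomes (7.40 and 6.17, or 0.98 as the mean of its probe sets). TSC2 was at 8.95 and 7.28, but its probe sets were split, with -0.75 without shared ones, and it did not pass.
SWI/SNF and ISWI remodellers had 0 of 24 higher and 1 lower (median -0.06). ARID1B, a subunit of the BAF complex, was at 9.71 and 11.40 with DOX (-0.27 as the mean of its probe sets) and at 11.38 and 11.34 without, and ARID1A at 9.78 and 10.76 (-0.45 as the mean of its probe sets), and neither passed. BAZ1A was lower by 0.81 on the log2 scale and fell (-0.51 as the mean of its probe sets). In the microRNA processing list 0 of 13 were higher, 1 was lower and 0 passed the additive model (median -0.02). TNRC6C, which links Argonaute to deadenylases, was at 8.07 and 9.35 (-0.33 as the mean of its probe sets), AGO3 was higher by 0.64 (0.12 as the mean of its probe sets) and AGO4 by 0.63 (0.38).

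Of 31 BMP and TGF-beta genes 5 were higher and 3 lower, with a median of 0.02 that turned to -0.10 on centring, and 7 rose and 1 fell. Beside this and the next lists, 11.4% of all measured genes were higher and 5.32% lower. INHBA, the activin A subunit, was at 5.53 and 8.69 and fell by 3.20 on the log2 scale (SE 0.28, adjusted p = 1.52e-05), opposite to INHBE. The mean of its probe sets differed by -1.34. FSTL1 was at 11.67 and 9.23 and ID1, a BMP target that blocks differentiation factors, at 11.02 and 9.50, and they rose by 2.11 ± 0.25 and 2.02 ± 0.26. TGFB1 was at 8.25 and 6.81 with DOX (0.48 as the mean of its probe sets) and 6.88 and 7.06 without, and did not pass.
Wnt genes had 3 of 30 higher and 2 lower, with a median of 0.07 that turned to -0.05 on centring, and -0.09 in the control pair. The corepressor TLE2 was at 10.13 and 7.98 and DKK3 at 13.19 and 11.87 (0.99 as the mean of its probe sets), and both rose. TLE4 was lower by 1.12 on the log2 scale (-0.51 as the mean of its probe sets) and fell, and TLE3 was lower by 1.04 (-0.07 as the mean of its probe sets) and did not pass. Notch genes had 3 of 18 higher and 1 lower, with a median of 0.09 that turned to -0.03 on centring, and 0.03 in the control pair. The ligand DLL1 (7.74 and 6.47, probe set mean 0.71) and RFNG, which adds sugars to Notch (8.14 and 6.71), rose. LFNG, of the same enzyme family, was at 8.93 and 10.04 (-0.51 as the mean of its probe sets) and fell.
YAP/TAZ and their targets had 5 of 21 higher and 4 lower (median 0.12, or -0.04 with the mean of each gene's probe sets), and 8 rose and 3 fell. CCN1, a matricellular target, was at 11.34 and 9.09 and rose by 2.39 ± 0.22 (adjusted p = 2.1e-05). WWTR1, which encodes TAZ, was at 10.49 and 12.02 and the tissue factor gene F3 at 9.73 and 12.17, and both fell. ARHGEF17 was higher by 1.52 and rose. EGF receptor family genes had 0 of 9 higher and 1 lower (median 0.15). The ligand EREG was at 11.08 and 12.40 and fell by 1.03 on the log2 scale (SE 0.16, adjusted p = 0.000844), and EGFR was at 11.77 and 10.99 and rose by 0.84 ± 0.17 (adjusted p = 0.00469), but only 3 of its 5 probe sets at the level were higher with DOX and the mean of its probe sets was 0.03.
Vascular receptors and VEGF genes had 1 of 13 higher and 4 lower (median -0.36, and -0.19 in the control pair), and 1 rose and 4 fell. KDR, a VEGF receptor, was at 7.53 and 4.77 (1.53 with levels under 6 set to 6) and rose, and ANGPTL4 was at 6.79 and 8.95 and fell by 1.69 on the log2 scale (SE 0.30). ANGPT1 was at 5.39 and 6.71 and fell, but differed by 0.15 without shared probe sets.

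Apoptosis regulators had 3 of 24 higher and 1 lower (median 0.15, and 0.01 in the control pair). The shares over all measured genes were 11.4% higher and 5.32% lower. BMF, a BH3-only death inducer, was at 8.0 and 5.87 and rose by 1.34 ± 0.36 (adjusted p = 0.0181). BCL2, which blocks death, was at 10.01 and 8.46 (probe set mean 0.54) and BCL2L1 at 9.70 and 8.68 (0.35), and both rose. BAX was at 9.56 and 10.59 (probe set mean -0.84) and fell. Among 21 p53 targets 2 were higher and 4 lower, with a median of 0.12 that turned to -0.00 on centring, and 0.12 in the control pair. SESN2, which is also a target of ATF4, was at 10.20 and 8.18 and rose by 2.21 ± 0.26 (adjusted p = 0.00012). TIGAR was lower by 1.27 on the log2 scale and fell, and AEN (-1.44) and TP53INP1 (1.29, or 0.43 as the mean of its probe sets) did not pass.
Multidrug ABC transporters had 2 of 9 higher and 1 lower, all 3 the same in the control pair, with a median of 0.11 that turned to -0.01 on centring. ABCA1 (8.89 and 6.01) and ABCG1 (11.89 and 10.21), which export cholesterol, rose by 2.86 ± 0.28 and 1.90 ± 0.19 (the mean of the probe sets of ABCA1 gave 1.53). ABCG2, the drug exporter of side population cells, was at 7.24 and 8.77 and fell by 1.42 on the log2 scale (SE 0.28, adjusted p = 0.00328), and ABCC3 was higher by 0.69 and rose.
Lysosome genes had 5 of 24 higher and 2 lower (median 0.17, and -0.04 in the control pair). CTSK, a collagen-cleaving protease, was at 7.27 and 5.51 and GAA, which breaks down glycogen, at 9.38 and 8.14, and both rose. Of 19 S100 proteins and annexins 2 were higher and 2 lower (median -0.13). ANXA3 was at 8.30 and 5.27 and rose by 3.48 ± 0.31 (adjusted p = 1.65e-05), and ANXA5 was at 11.22 and 12.47 and fell. For both higher genes ALDH- DOX lay under 6, and with such levels set to 6 ANXA3 differed by 2.30. ANXA7 (-1.40) gave -0.21 without shared probe sets and did not pass.

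Core metabolism and the translation machinery were near the median of all genes. Of 19 glycolytic genes 0 were called either way, with a median of 0.09 that turned to -0.03 on centring and was -0.27 in the control pair, and 0 rose and 3 fell. LDHA, which makes lactate, was at 13.13 and 13.58 and fell by 0.38 on the log2 scale (SE 0.07, adjusted p = 0.00359). Hypoxia genes had 1 of 17 higher and 3 lower (median -0.15, and 0.08 in the control pair). EGLN3, an oxygen sensor, was at 8.0 and 9.85 and fell by 2.08 on the log2 scale (SE 0.27, adjusted p = 0.000228), PFKFB4 was at 8.54 and 9.65 (-0.61 as the mean of its probe sets) and fell, and BNIP3L, a receptor for mitochondrial autophagy, was at 11.80 and 10.42 and rose.
Respiratory chain subunits had 1 of 67 higher and 0 lower (median 0.12), mitochondrial ribosomal proteins 1 of 75 and 0 (median 0.06), and cytosolic ribosomal proteins 0 of 58 and 0 (median 0.07). On centring the last 2 medians turned to -0.06 and -0.04. The respiratory subunit gene ATP5MC2 was at 11.65 and 10.48 (probe set mean 0.40), MRPL10 at 11.76 and 10.65 (0.99 on centring) and RPL12 at 13.82 and 13.22, and all 3 rose. MRPS6 was lower by 0.98 on the log2 scale and fell.
Splicing regulators had 0 of 67 higher and 2 lower (median -0.27), and 18 fell and 2 rose. The members called were HNRNPL and SNRNP40, a protein of the U5 particle at 9.10 and 11.28 with DOX and at 11.64 and 11.31 without. SNRNP25 (10.05 and 10.91) fell by 1.06 on the log2 scale (SE 0.22, adjusted p = 0.00505). Of 11 housekeeping genes 0 were called and 1 fell, with a median of -0.22. The furthest, TBP, was at 10.09 and 11.07 with DOX and at 11.11 in both control arrays.

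Markers of other cell types stayed few. Of 8 endothelial markers 3 were measured, of which KDR rose and PECAM1 (7.56 and 9.62) and ERG (8.39 and 9.74) fell, with ERG at 0.013 without shared probe sets. The defining markers CDH5, VWF and TEK lay under 6 in all 4 arrays, and the list's summed level was 9.70 in ALDH+ DOX and 10.80 in ALDH- DOX on the log2 scale. Of 4 erythroid and platelet markers only HBB reached the level, at 6.44 and 5.62, and it rose by 1.02 ± 0.29 (adjusted p = 0.0225), with summed levels of 7.27 and 6.74. Fibroblast markers, which mesenchymal tumour cells also express, had 1 of 5 measured members higher and 2 lower, with summed levels of 13.41 and 13.59. DCN, decorin, was at 10.33 and 11.69 and fell, COL1A1 was at 12.53 and 11.72 and did not pass, and FAP and LUM lay under 6 in all 4 arrays.

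The signed ALDH difference with DOX lay above that without DOX by 2-fold or more for 468 of 12365 genes (3.78%), and below it for 297 (2.40%), whether the difference itself grew or shrank. No degree of freedom remains to test this, so that these are sizes only, and centring lowered the first count to 297. COL3A1, a fibrillar collagen, departed the most. It was at 11.24 in ALDH+ DOX, 9.50 in ALDH- DOX, 5.76 in ALDH+ control and 9.62 in ALDH- control, a difference of 1.73 with DOX and -3.87 without. The ALDH+ control array was the low one, all probe sets of the gene at the level are of the shared kind, and their mean gave 0.95.
CDH6 and PCDH18, both cadherin family genes, were also lowest in ALDH+ control. CDH6 was at 9.49 and 10.08 with DOX and 7.31 and 10.07 without, and PCDH18 at 9.14 and 9.16 with DOX and 6.91 and 9.13 without. APCDD1 (8.66 and 5.09 with DOX, 6.72 and 5.35 without) and the matrix protein gene SNED1 (8.55 and 6.47, then 6.08 and 6.26, with a DOX difference of 1.29 as the mean of its probe sets) had their highest level in ALDH+ DOX. CSMD3, MS4A1, SCN1A, S100A8 and HYMAI were at 6.21 to 6.54 in ALDH+ DOX and under 6 in ALDH- DOX, so that their departures rest on values at the edge of background.
Of the 10 genes furthest on the negative side, 6 were well above the ALDH+ DOX array in the other 3. MEX3D, an RNA-binding ubiquitin ligase gene, was at 5.97 in ALDH+ DOX and between 10.21 and 10.77 in the other 3 arrays, though the mean of its probe sets differed by -1.59. HNRNPL, a splicing regulator, was at 9.04 against 12.75 to 12.89, with both of its probe sets on the same side. MTA2, of the NuRD repressor complex, was at 4.17 against 6.86 to 7.20 (-1.20 with levels under 6 set to 6). SLC35D1, a nucleotide sugar carrier, was at 7.59 against 10.00 to 11.38, and HMOX1 at 9.30 against 12.21 to 13.25. THBS1 was at 8.02 against 10.46 to 11.56. IL1A, an alarmin cytokine, was instead high in ALDH+ control, at 10.86, against 8.16 to 8.90 in the other arrays.
The other 3 were high in ALDH- DOX alone. POSTN, periostin, was at 8.65 there and between 4.29 and 5.20 elsewhere (-2.73 without shared probe sets and -1.78 as the mean of its probe sets). COL1A2 was at 7.91 against 4.48 to 4.56. ATP6V0D2, a proton pump subunit of osteoclasts and macrophages, was at 7.14 against 3.49 to 3.79 (-1.14 with levels under 6 set to 6). In the additive model MEX3D, POSTN, HNRNPL, ATP6V0D2, COL1A2, SLC35D1, MTA2 and HMOX1 passed by their mean over pairs, although most of that mean came from 1 pair.

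**Figure D4:**
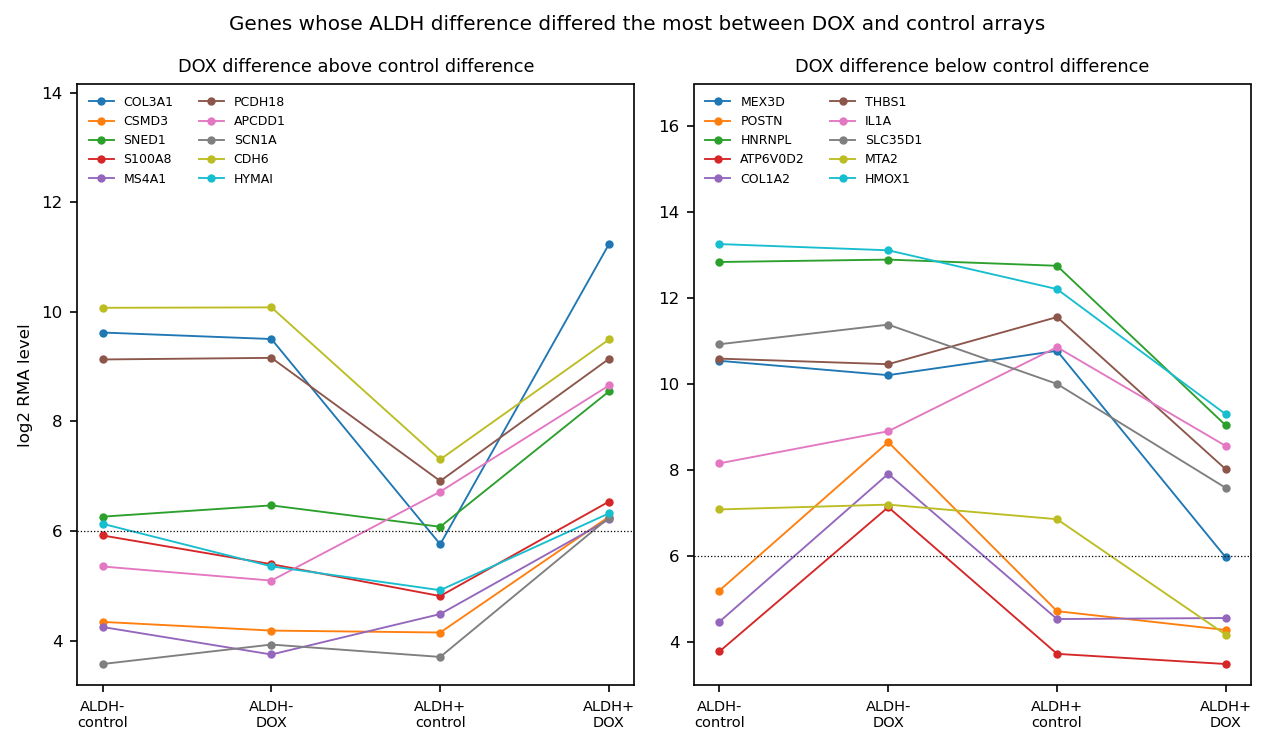
Log2 level in each of the 4 arrays for the 10 genes whose DOX difference lay furthest above their control difference (left) and the 10 furthest below (right), 1 array a group, lines joining the same gene and the level of 6 dotted. COL3A1 drops to 5.76 in ALDH+ control alone, MEX3D and HNRNPL drop in ALDH+ DOX alone, and POSTN, COL1A2 and ATP6V0D2 are raised in ALDH- DOX alone.

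Long noncoding RNAs were higher more often than protein-coding genes. Of 652 lncRNA genes 197 were higher (30.2%) and 24 lower (3.68%), with a median of 0.55, and of 11351 protein-coding genes 10.3% were higher and 5.44% lower, with a median of 0.06. In the control pair 14.6% of the lncRNA genes and 5.28% of the coding genes were higher, with medians of 0.24 and -0.01. The kinds differ in level, with medians of 7.25 for lncRNA genes and 9.96 for coding genes in the DOX pair. Whether level accounts for the gap was not tested. At a mean level of 9 to 10 the shares higher were 24.2% of 62 lncRNA genes and 11.8% of 1870 coding genes, and at 10 to 11 they were 24.2% of 33 and 7.23% of 2336. LINC01133 (8.87 and 4.89), CRIM1-DT (8.87 and 5.92), DICER1-AS1 (10.04 and 6.90) and LINC00467 (9.54 and 6.70) were among the 8 highest lncRNA genes and rose. APCDD1L-DT (7.12 and 10.25), ADAMTS9-AS1 (6.20 and 8.70) and DLEU2 (7.33 and 9.08) were among the 8 lowest and fell. The mean of the probe sets was 2.05 for DICER1-AS1, -0.94 for APCDD1L-DT and -1.66 for ADAMTS9-AS1. Apart from LINC01133 these lncRNA genes were named after their values were seen. Whether an antisense probe set also reads its overlapping gene was not tested.

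**Figure D5:**
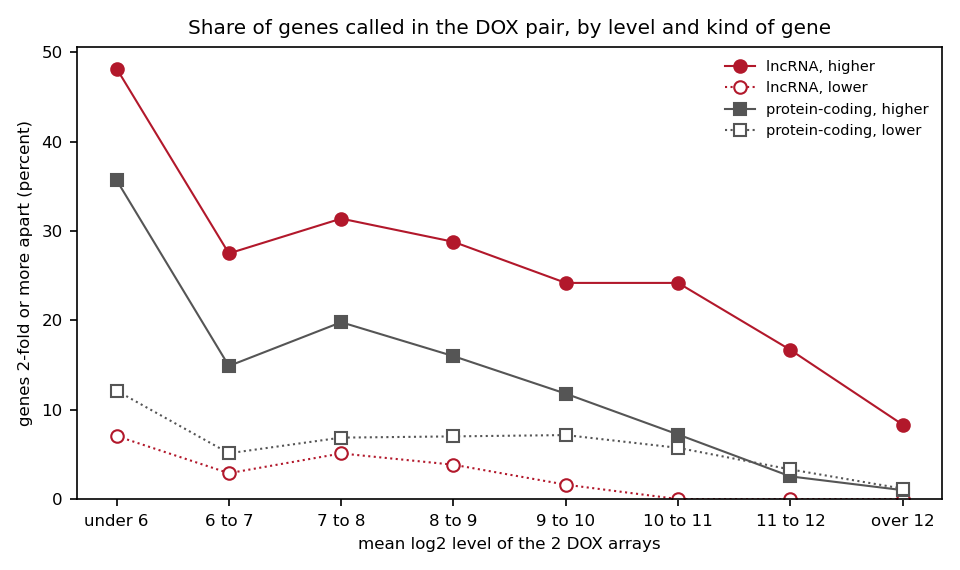
Share of genes 2-fold higher (filled) or lower (open) in ALDH+ DOX than in ALDH- DOX, in percent, by the mean log2 level of the 2 DOX arrays, for lncRNA genes (red circles) and protein-coding genes (grey squares). The share higher is larger for lncRNA genes in all 8 level classes, the last 2 of which hold 12 lncRNA genes each.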

How the data were processed

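Each group is 1 Affymetrix expression array, for which the authors deposited log2 values per probe set. These come from RMA, per the submitters' processing notes. RMA corrects background, equalises the arrays' distributions and combines the probes of a set, in a version that no source used here gives. Equalised distributions hide a change in total RNA.

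A platform annotation dated 2016 gave 41097 probe sets 1 gene, 1801 several and 11777 none, 62 of them controls, and 41043 symbols were matched by gene ID. Each gene was read from the probe set of highest mean level. Differences of log2 levels were called at 2-fold with a level of 6 in at least 1 array of the pair. An additive model (fraction and treatment) was fitted with limma 3.58.1 in R 4.3.3 (lmFit, eBayes with trend, two-sided, Benjamini-Hochberg over 12365 genes), with 1 residual and 11.6 prior degrees of freedom. It was run on simulated data only with independent noise and with the same change in both pairs. These data need not meet those conditions, so that run is no check of the model on them. No label says that the arrays come from separate cultures, so the model's p-values reflect only how far these arrays vary, perhaps for technical reasons. The number of arrays limits the precision.

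The genes to compare, the 62 gene lists and the rules were chosen with earlier results of these data known. Genes named were the 15 highest and 15 lowest with all probe sets at the level on the same side, the 10 furthest departures each way, with all probe sets on the same side for the departure itself, up to 4 members a list, all ALDH genes and miR-99/100 targets, and genes called in opposite directions; pseudogenes, LOC, orf, -AS, -DT and -IT names, and LINC names after the first 2, were passed over. ASNS, MIR100HG, VIM, CD44, HLA-DOA, HLA-DOB and the lncRNA genes beside LINC01133 were named outside this rule, after their values were seen. Lists are described by counts and medians. Alternatives were centring, cyclic loess, no level filter or a level of 7, levels under 6 set to 6, the mean of probe sets, leaving out shared probe sets (names ending in _x_at or _s_at), 1.5-fold, and eBayes without trend or robust. Python 3.11.15, numpy 2.4.6 and pandas 2.3.3 were used.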

Additional observations from a re-analysis of the deposited data

Results flagged for a closer look

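The ALDH difference ran in opposite directions, by 2-fold or more each way, in the DOX and the control pair for 4 genes. The difference between the pairs was not tested, since 1 array a group leaves no error for it. COL3A1, a fibrillar collagen, was at 1.73 with DOX and -3.87 without. FTX, a noncoding RNA of the X inactivation centre, was at 1.20 and -1.23, with 0.43 as the mean of its probe sets in the DOX pair. Its 2 probe sets at the level differed in opposite directions in that pair. ATXN7L3-AS1, which is antisense to ATXN7L3, was at 1.14 and -1.09. Its control levels were 5.30 in ALDH+ and 6.39 in ALDH- cells, and COL3A1 was at 5.76 in ALDH+ control. Levels under 6 leave the size of these control differences uncertain. JDP2, an AP-1 family repressor, was at -1.05 and 1.08, and its 2 probe sets at the level lay on opposite sides.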

How the results depend on the processing

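With 1 array a group no array could be left out and no interaction fitted. No paired analysis was possible because each group held 1 array with no replicate number. Levels under 6 limit what can be read as a size. Under the alternatives 54 counts of calls stayed within 1.5 times of the main count and 12 did not; the cause was not tested except where named. With a threshold of 1.5-fold, which admits more genes, the DOX pair had 2805 higher and 1542 lower genes, the control pair 1664 and 1478, and the departures 1827 and 927. The positive departures were 297 on centring and 270 with the mean of probe sets. The additive model gave 998 higher and 529 lower genes without trend, and 767 and 410 with no level filter. Among differences of 2-fold or more and additive results that passed, the sign turned without shared probe sets for ANGPT1 (0.15), ERG (0.013), PCDH7 (0.39) and TSC2 (-0.75), and with the mean of probe sets for JDP2 (0.39) and for MRPS18C in the additive model (0.31, adjusted p = 0.33); the probe sets of these genes disagree. Among smaller differences the mean of probe sets turned BAZ2A (-0.18), MBNL1 (-0.69), SLC2A3 (-0.07), CDKN1C (-0.02) and the DOX difference of MRPS18C (0.17), and others that lay within 0.20 of 0. The same setting turned the medians of D cyclins (-0.28), Wnt (-0.10) and ABC transporter genes (-0.15). Of the named genes' DOX differences under alternatives, 1700 moved by less than the model's standard deviation, 199 by more and 5 of 2-fold or more reversed; of their additive results 2201 kept their side, 260 lost and 16 gained it, and 1 reversed.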

Other observations

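Genes of chromosome 19 were higher more often with DOX than those of other chromosomes, but their median level, 8.59, was also the lowest. Whether level accounts for this was not tested. Of 793 measured on chromosome 19, 15.8% were higher and 2.4% lower, with a median of 0.24 with DOX and 0.03 without. In the control pair 4.54% of them were higher. On chromosome 22 14.3% of 294 were higher and 2.72% lower, with a median of 0.23. On chromosome 13 the order was turned, with 7.08% of 226 higher and 11.5% lower. By mean level, 16.6% of genes were higher and 4.73% lower between 6 and 7, 16.8% and 6.71% between 8 and 9, and 1.07% and 1.15% over 12. Under 6 the shares were 37.6% and 10.9%, in a class that the filter fills with genes at the level in only 1 array of the pair. In 5 classes of promoter GC content, known for 81.6% of measured genes, the share higher ran from 9.9% to 13.8%. Of 4513 probe sets at the level with no annotated gene, 11.5% were higher and 9.15% lower, against 10.2% and 8.54% of 24393 probe sets of a single gene.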
